A study of Rattus norvegicus with 28 samples.

Results

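The aminoacyl-tRNA synthetase genes were followed across NRK-49F, an established rat kidney fibroblast line, given a fibrotic stimulus alone, with less methionine, or with a knockdown of Hoxc8. Members were taken by gene symbol from the expression table, as all names of the synthetase form (Aars, Yars1, Wars2 and the like) together with Eprs, Farsa, Farsb and the scaffold genes Aimp1 and Aimp2. The rule found 39 genes among the 30178 of the table. Of these, 20 encode cytosolic synthetases, 17 encode mitochondrial synthetases with symbols ending in 2, and 2 encode scaffold proteins. Gars and Kars make enzymes for both compartments from 1 gene each and were counted with the cytosolic genes.

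Expression was measured by RNA-seq in 4 groups of 2 libraries. All cells were grown with 10% serum and starved for 24 h in 0.2% serum. The control group received nothing further that the labels name. The TGF-β group received transforming growth factor β1 (TGF-β), given in the labels as 5 ng per uL, for 48 h. The TGF-β with MetR group received the same cytokine for the same time under methionine restriction, with 30 uM methionine where the matching control medium held 200 uM. The TGF-β with siHoxc8 group received the cytokine and a small interfering RNA targeting Hoxc8, a homeobox gene, also for 48 h. The labels do not say whether the control and TGF-β libraries were kept in the 200 uM medium, nor do they name a control siRNA for the RNA-seq libraries, so effects of the medium or of transfection cannot be told apart from MetR or siHoxc8. All libraries come from a single cell line, and the labels leave unstated whether replicate libraries are separate cultures, so the spread behind the p-values may be technical.

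Aminoacyl-tRNA synthetases join each amino acid to its tRNA and so supply charged tRNA to the ribosome. Cytosolic and mitochondrial translation use separate enzymes for most amino acids, and all of them are encoded in the nucleus. Several cytosolic synthetases are held in a multisynthetase complex on the Aimp scaffold proteins, and many cytosolic synthetase genes are known targets of ATF4, the transcription factor of the amino acid response, which is made when uncharged tRNA activates the kinase GCN2. Methionyl-tRNA synthetase, Mars1 in the cytosol and Mars2 in mitochondria, handles the amino acid that was restricted here.

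ATF4 with a C/EBP partner binds an element whose core is TGATGNAA, or TTNCATCA when read on the opposite strand. This core was searched on both strands of the RefSeq promoter windows (GRCr8, 250 bases before to 50 after each gene's start), in which 35 members were matched. It was found in 7 of 17 cytosolic windows, or 41.2%, namely those of Aars, Cars, Iars1, Mars1, Nars1, Tars1 and Yars1. None of the 16 mitochondrial windows and neither scaffold window held it, and over all RefSeq promoters it was found in 1332 of 33469, or 3.98%. A match describes letters and does not show that a factor binds, and no match says only that these letters are not in the window. The stretches below show the core, in capitals, in 4 members where it lies before the start: Aars at chr19:55908344-55908403 on the plus strand, Iars1 at chr17:15193653-15193702, Mars1 at chr7:65023754-65023796 and Tars1 at chr2:62114803-62114855, the last 3 on the minus strand. Each is written 5′ to 3′ along the gene's strand, and in all 4 the core is read on the opposite strand. Nars1, not drawn here, also holds the core before its start, beginning 14 bases before it. There it lies on the gene's own strand, so the orientation is not shared by all members.
Aars: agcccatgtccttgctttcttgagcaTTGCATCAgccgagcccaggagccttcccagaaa
Iars1: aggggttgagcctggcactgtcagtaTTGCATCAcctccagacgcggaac
Mars1: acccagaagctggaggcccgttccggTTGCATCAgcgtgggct
Tars1: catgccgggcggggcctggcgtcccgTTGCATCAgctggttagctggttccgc
The core begins 112 bases before the start in Aars, 24 in Iars1, 17 in Mars1 and 27 in Tars1. The 8 letters are the same in all 4 stretches, including the free position. Aars holds a second core, not drawn, that begins 9 bases after the start. The cores of Cars and Yars1 also lie after the start, beginning 17 and 38 bases after it.

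The libraries held 15118113 to 20146870 recovered reads each. Tested cytosolic genes rested on 780 reads (Farsb, in its lowest library) to 22852 reads (Aars, in its highest), and tested mitochondrial genes on 41 (Rars2) to 1736 (Iars2). The siRNA's target Hoxc8 was at 4.32 and 5.01 FPKM with TGF-β at 0.463 and 0.0771 with siHoxc8 added, and at 0.417 and 0.614 with MetR added. It fell in both comparisons (-2.17 ± 0.19, limma adjusted p = 0.000182, with siHoxc8 and -1.90 ± 0.19, adjusted p = 0.000272, with MetR), and the direct comparison of MetR with siHoxc8 did not pass the test (0.27 ± 0.19, adjusted p = 0.27). Of the 5 fibroblast markers in the table, 4 exceeded 1 FPKM and Thy1 was listed at 0. Of 5 epithelial markers, Krt8 exceeded 1 FPKM in all libraries and Cdh16 in the MetR libraries alone, and Epcam was listed at 0. No endothelial marker exceeded 1 FPKM, and of the leukocyte markers Cd68 alone did. In the MetR group replicate 2 was above replicate 1 for 19 of 20 cytosolic members, by a median of 0.33 on the log2 scale against 0.07 over all genes.

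In control cells the cytosolic genes were expressed well above the mitochondrial ones. FPKM (fragments per kilobase of gene, scaled to library size) is a level per length and allows genes to be compared. Mean control levels ran from 25.7 FPKM for Farsb, the β subunit of phenylalanyl-tRNA synthetase, to 168 for Gars and Sars1, the glycyl and seryl enzymes. Mitochondrial levels ran from 2.66 FPKM for Rars2 to 30.0 for Iars2, apart from Mars2. Iars2, the mitochondrial isoleucyl enzyme, was the only mitochondrial gene whose mean exceeded that of a cytosolic one, and its control values of 30.8 and 29.2 FPKM lay above the 25.9 and 25.6 of Farsb. At the top of the order Sars1 (168 and 169 FPKM in the control libraries) and Gars (165 and 172) overlapped, while Cars stood just below at 161 in both libraries.
Mars2 was the lowest member, with 1 to 3 reads in each of the 8 libraries. These values are at or under the floor of 3 counts, so no fold is given, and Mars2 did not enter the tests. Its cytosolic partner Mars1 stood at 81.8 and 78.9 FPKM in control.

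**Figure D1:**
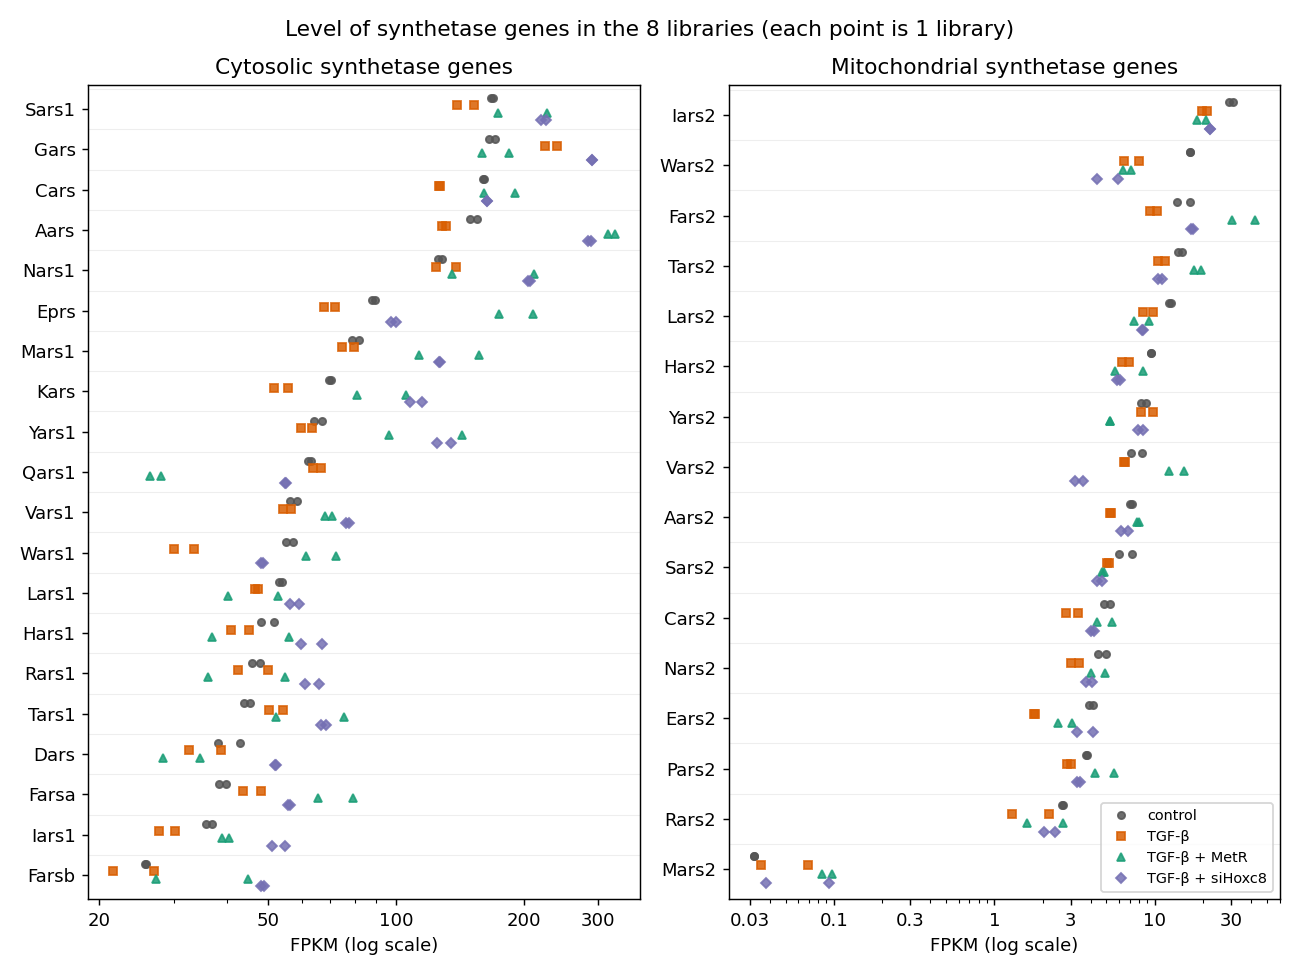
FPKM of synthetase genes in each of the 8 libraries, on a log axis, with cytosolic genes in one panel and mitochondrial genes in the other, ordered by control level and coloured by group. Control values of cytosolic genes run from 25.6 to 172 FPKM, those of mitochondrial genes are lower except that Iars2 lies above Farsb, and Mars2 lies far to the left.

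TGF-β lowered many mitochondrial synthetase genes and few cytosolic ones. Of the 16 mitochondrial genes tested, 10 fell and none rose, where 28.6% of all 12315 genes tested fell and 10.3% rose. Of the 20 cytosolic genes, 4 fell (Wars1, Cars, Eprs and Iars1) and Gars rose. Median log2 changes were -0.44 for the mitochondrial genes, -0.14 for the cytosolic genes and -0.19 for all genes. A gene was called at an adjusted p under 0.05 by limma on log2(FPKM + 1), adjusted over all genes tested by the Benjamini-Hochberg method, and changes are given as log2 fold change ± SE.
Wars2, the mitochondrial tryptophanyl enzyme, stood at 16.7 and 16.5 FPKM in control and at 8.01 and 6.44 with TGF-β. Both TGF-β libraries were below both controls, a change of -1.10 ± 0.16 (limma adjusted p = 0.00168). Its cytosolic counterpart Wars1 went from 55.1 and 57.2 FPKM to 33.4 and 30.1, also without overlap (-0.81 ± 0.11, adjusted p = 0.00125). The tryptophanyl pair was thus lower in both compartments.
Ears2, the mitochondrial glutamyl enzyme, stood at 3.92 and 4.11 FPKM in control and at 1.76 and 1.80 with TGF-β (-0.85 ± 0.15, adjusted p = 0.00399). Its groups did not overlap.
Gars went the other way, from 165 and 172 FPKM to 224 and 239 (0.46 ± 0.10, adjusted p = 0.0108). All 4 values were separated by group, but the adjusted p passed 0.05 without control replicate 1 or control replicate 2, reaching 0.0938. Mars1 stood at 79.6 and 74.6 FPKM with TGF-β, overlapping the controls (-0.06 ± 0.15, adjusted p = 0.774).
The smaller calls were less stable. Fars2, the mitochondrial phenylalanyl enzyme, went from 16.5 and 13.8 FPKM to 9.33 and 10.3 (-0.57 ± 0.16, adjusted p = 0.0287), and lost the call under 9 of the alternatives tried. Cars, Eprs and Iars1 fell by 0.34, 0.34 and 0.32 and each lost the call under 7 or 8 alternatives. The FPKM scale moved with the comparison: median-ratio rescaling brought the median of all genes from -0.19 to 0, with 18.5% of genes higher and 17.4% lower. After it, 4 mitochondrial genes fell and none rose (median -0.28), while 4 cytosolic genes rose and 1 fell (median 0.08, so the cytosolic direction flipped). After quantile normalization, which called 16.9% of genes higher and 17.1% lower, 4 mitochondrial genes fell and 1 rose (median -0.14), and 5 cytosolic genes fell and 2 rose (median -0.11).
The mitochondrial count of 10 became 3 without control replicate 1, 4 without control replicate 2 or TGF-β replicate 1, and 5 without TGF-β replicate 2 or either siHoxc8 library. The cytosolic count of 5 became 1 without either control library, 3 without TGF-β replicate 1, 2 without TGF-β replicate 2 or either siHoxc8 library, and 10 without either MetR library. For refits without 1 library, here and below, no share of all genes is given, so their counts describe the members only. Wars1, Wars2 and Ears2 kept their calls under all alternatives.

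Adding methionine restriction to TGF-β raised many cytosolic synthetase genes and some mitochondrial ones, with marked exceptions. The mitochondrial rises depended on the scaling and the filter, as given below. Of 20 cytosolic genes, 11 rose and 2 fell, and of 16 mitochondrial genes 8 rose and 1 fell, where 34.8% of all genes rose and 19.0% fell. Medians were 0.45 for cytosolic, 0.40 for mitochondrial and 0.18 for all genes. The TGF-β libraries that serve as reference here are also those compared with control above and with siHoxc8 below, so a low value in them moves all 3 comparisons.
Eprs, which makes the joined glutamyl and prolyl enzyme, stood at 71.9 and 67.8 FPKM with TGF-β and at 175 and 210.1 with MetR (1.45 ± 0.11, adjusted p = 9.8e-05). Aars, the alanyl enzyme, stood at 132 and 129 and then at 316 and 329 (1.30 ± 0.08, adjusted p = 7.03e-05). Wars1 stood at 33.4 and 30.1 and then at 61.5 and 72.1 (1.05 ± 0.11, adjusted p = 0.000286). In these 3 genes both MetR libraries were also above both control libraries. For Wars1 the change over control was small and did not pass the test (0.24 ± 0.11, limma adjusted p = 0.0891).
Yars1, the tyrosyl enzyme, went from 59.8 and 63.4 FPKM to 96.4 and 143 (0.92 ± 0.17, adjusted p = 0.00324). Mars1, the gene of the restricted amino acid's cytosolic enzyme, went from 79.6 and 74.6 to 113 and 157 (0.78 ± 0.15, adjusted p = 0.00341). Both genes were separated by group, and in both MetR replicate 2 was the higher library. The other cytosolic rises were those of Kars, Farsa, Cars, Iars1, Sars1 and Vars1, between 0.32 and 0.77.
Qars1, the glutaminyl enzyme, stood at 62.2 and 63.0 FPKM in control, 66.7 and 63.8 with TGF-β, and 28.0 and 26.3 with MetR. Its MetR libraries were the lowest of all 8 (-1.23 ± 0.08 against TGF-β, adjusted p = 7.76e-05). Gars returned from 224 and 239 FPKM to 159.6 and 185, overlapping its control values (-0.43 ± 0.10, adjusted p = 0.00912), a call lost when only these 2 groups were fitted (adjusted p = 0.0839).
Among mitochondrial genes the largest change was in Fars2, at 9.33 and 10.3 FPKM with TGF-β and 30.5 and 42.4 with MetR (1.78 ± 0.16, adjusted p = 0.00021). Vars2, the valyl enzyme, went from 6.57 and 6.41 to 15.2 and 12.2 (0.97 ± 0.14, adjusted p = 0.00116), and Tars2, the threonyl enzyme, from 10.5 and 11.6 to 17.5 and 19.4 (0.69 ± 0.11, adjusted p = 0.00143). All 3 were also above control in both MetR libraries.
Yars2, the mitochondrial tyrosyl enzyme, went the opposite way to Yars1, from 8.24 and 9.75 FPKM to 5.30 and 5.27 (-0.67 ± 0.12, adjusted p = 0.0028). Its MetR libraries did not overlap any other group. Wars2 stayed low, at 7.07 and 6.33 with MetR.
Median-ratio rescaling, which called 25.7% of genes higher and 26.5% lower, left 8 cytosolic rises and 3 falls (median 0.23) and 5 mitochondrial rises and 2 falls (median 0.24). Quantile normalization, with 26.7% higher and 24.9% lower, left 9 and 3 cytosolic (median 0.35) and 4 and 2 mitochondrial (median 0.22). The mitochondrial rises were then near the share of all genes. With only these 2 groups in the fit, 8 cytosolic and 4 mitochondrial genes were called in either direction, against 13 and 9. No share of all genes is given for that fit or for the filter that follows, so their counts describe the members only. Among the 10 mitochondrial genes with a mean of at least 5 FPKM, 4 rose and 1 fell, with a median of 0.01 in place of 0.40. Cdh16, an epithelial cadherin, stood at 2.53 and 2.76 FPKM with MetR and at 0 to 0.106 in the other 6 libraries (1.78 ± 0.15 over TGF-β, adjusted p = 0.00017), and its part in these results was not tested.

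Knockdown of Hoxc8 under TGF-β raised cytosolic synthetase genes broadly. Of 20, 15 rose and none fell, and in 19 both siHoxc8 libraries lay above both TGF-β libraries, Qars1 being the exception. Over all genes 28.1% rose and 15.7% fell, and 47.6% had both siHoxc8 libraries above. Of 16 mitochondrial genes 2 rose and 1 fell. Medians were 0.54 for cytosolic, 0.13 for mitochondrial and 0.13 for all genes.
Aars stood at 288 and 284 FPKM with siHoxc8 against 132 and 129 with TGF-β (1.13 ± 0.08, adjusted p = 9.48e-05). Yars1 stood at 125 and 135 against 59.8 and 63.4 (1.06 ± 0.17, adjusted p = 0.00225). Kars, the lysyl enzyme, stood at 116 and 108 against 51.6 and 55.9 (1.04 ± 0.13, adjusted p = 0.000801). In each gene both siHoxc8 libraries were above all TGF-β and control libraries.
Iars1, the cytosolic isoleucyl enzyme, stood at 54.7 and 51.0 FPKM against 30.2 and 27.7 (0.85 ± 0.09, adjusted p = 0.000442). Mars1 stood at 127 and 126 against 79.6 and 74.6 (0.71 ± 0.15, adjusted p = 0.0067). Farsb stood at 48.1 and 48.9 against 21.6 and 26.9 (0.98 ± 0.21, adjusted p = 0.00869), and its call was lost without TGF-β replicate 1 (adjusted p = 0.0635). The groups of all 3 genes were separated.
The remaining rises, from 0.32 for Gars to 0.65 for Nars1, were smaller. Qars1 stood at 55.2 and 55.0 FPKM, below TGF-β in both libraries (-0.24 ± 0.08, adjusted p = 0.0532).
Among mitochondrial genes Vars2 fell, from 6.57 and 6.41 FPKM to 3.19 and 3.60 (-0.77 ± 0.14, adjusted p = 0.00391). This is the opposite of its change with MetR. Ears2 rose, from 1.76 and 1.80 to 3.27 and 4.15 (0.75 ± 0.15, adjusted p = 0.00547), and Fars2 rose, from 9.33 and 10.3 to 16.8 and 17.2 (0.74 ± 0.16, adjusted p = 0.00913). Ears2 overlapped its control values and Fars2 lay just above them. Ears2 lost its call without siHoxc8 replicate 2 (adjusted p = 0.0501), and Fars2 without TGF-β replicate 1 or siHoxc8 replicate 2 (up to 0.0569).
The cytosolic count of 15 became 9 without TGF-β replicate 1 or siHoxc8 replicate 2 and 8 without siHoxc8 replicate 1. The mitochondrial count of 3 became 6 without either MetR library and 1 without siHoxc8 replicate 2. After median-ratio rescaling 11 cytosolic genes rose and 1 fell (median 0.38), with 21.0% of all genes higher and 22.1% lower, and the mitochondrial median turned to -0.02. After quantile normalization, with 22.1% higher and 21.7% lower, 14 rose and 1 fell (median 0.43), and the mitochondrial median was -0.04. Krt8, an epithelial keratin, stood at 685 and 646 FPKM with siHoxc8 against 194 to 252 in the other groups, and its part in these results was not tested.

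**Figure D2:**
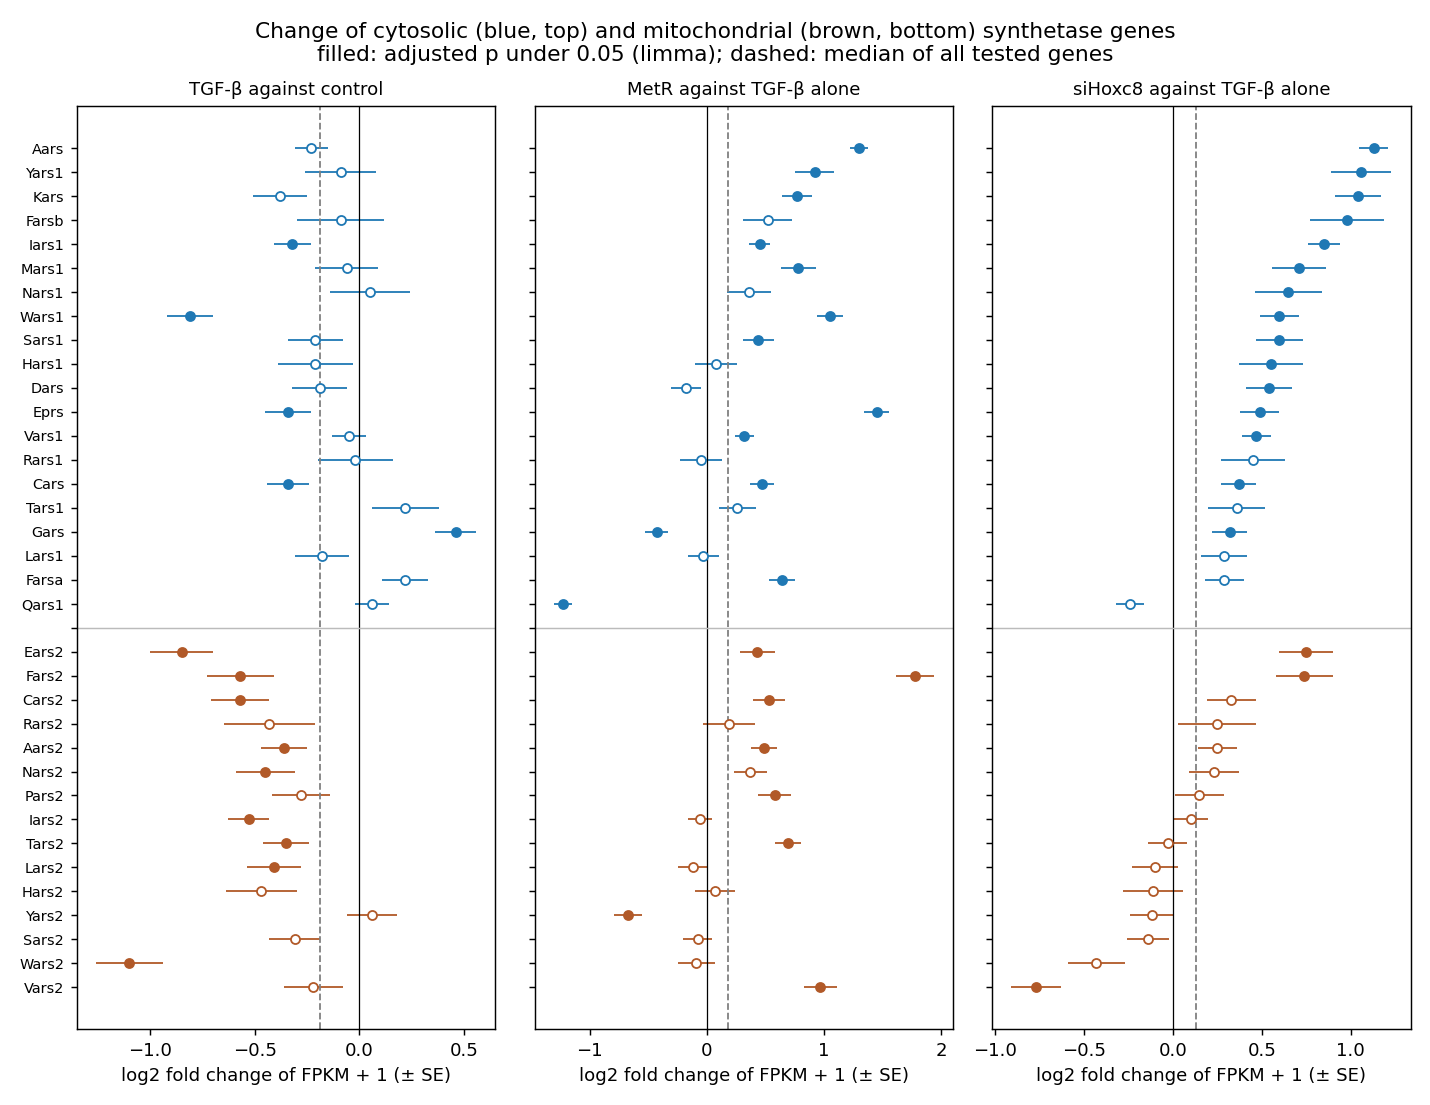
Log2 fold change ± SE of tested synthetase genes in the 3 main comparisons, with filled points for genes called at an adjusted p under 0.05 and a dashed line at the median of all genes. Mitochondrial genes lie mostly left of 0 with TGF-β, Qars1 stands alone at -1.23 with MetR, and cytosolic genes lie to the right with siHoxc8.

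**Figure D3:**
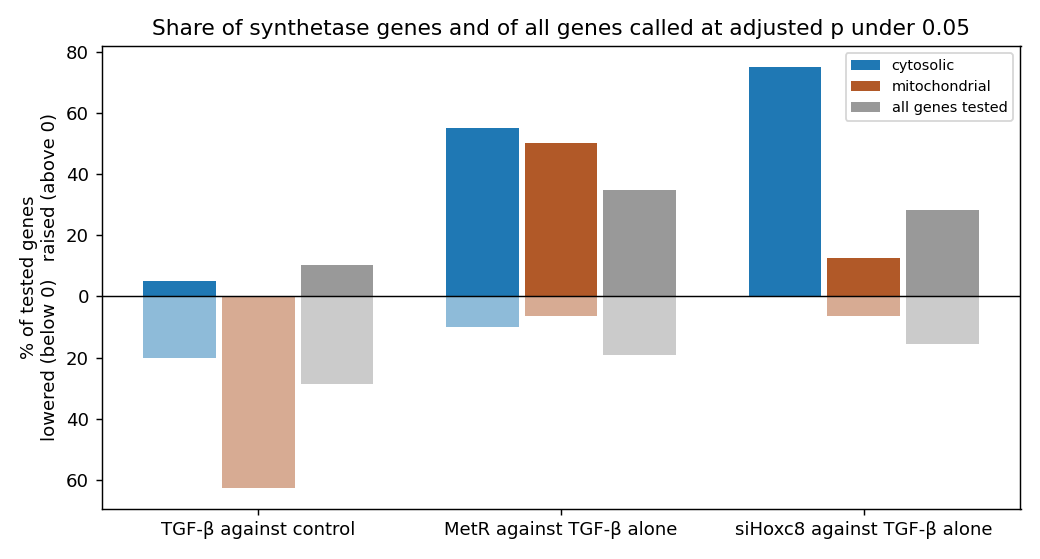
Percent of cytosolic genes, mitochondrial genes and all 12315 genes tested that were called higher or lower in each main comparison, as bars from 0. With siHoxc8 15 of 20 cytosolic genes were higher against 28.1% of all genes.

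Set directly against each other, the treatments differed in 7 of 20 cytosolic and 5 of 16 mitochondrial genes. In this fit both were smaller shares than over all genes, where 29.3% were higher with MetR and 24.9% were lower. Eprs (0.95 ± 0.11, adjusted p = 0.000302), Wars1 (0.45) and Farsa (0.36) were higher with MetR. Qars1 (-0.99 ± 0.08, adjusted p = 9.65e-05), Gars (-0.75), Dars (-0.72) and Iars1 (-0.40) were lower with MetR than with siHoxc8. Among mitochondrial genes Vars2 differed by 1.74 ± 0.14 (adjusted p = 8.08e-05), Fars2 by 1.04, Tars2 by 0.72 and Pars2 by 0.43, while Yars2 was lower by -0.55. Mars1 did not pass the test (0.07 ± 0.15, adjusted p = 0.708). The cytosolic count of 7 became 11 after either rescaling. Median-ratio rescaling called 27.6% of all genes higher and 27% lower, and quantile normalization 28.4% and 26.7%. The cytosolic count was then near the share of all genes, no longer under it. The mitochondrial count of 5 became 3 without siHoxc8 replicate 2.

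Both combined treatments were also set against untreated control. With MetR 8 cytosolic genes rose and 2 fell, and 3 mitochondrial genes rose and 7 fell, beside 28.0% and 29.3% of all genes. With siHoxc8 12 cytosolic genes rose and none fell, and no mitochondrial gene rose and 8 fell, beside 21.7% and 27.0% of all genes. Wars2 had the lowest change of all members in both, at -1.19 ± 0.16 with MetR (adjusted p = 0.00054) and -1.53 ± 0.16 with siHoxc8 (adjusted p = 0.000261), its siHoxc8 values being 5.88 and 4.37 FPKM. The MetR gains over control in mitochondria were those of Fars2 (1.20), Vars2 (0.75) and Tars2 (0.34). After quantile normalization 4 mitochondrial genes rose and 4 fell with MetR against control (median -0.07). These counts were near the shares of all genes in that setting, 30.7% higher and 28.7% lower. The cytosolic split with MetR was 6 rises and 5 falls without MetR replicate 2, and 13 and 1 without MetR replicate 1. Without either control library or either siHoxc8 library, the MetR counts against control became 6 in both classes, from 10 each. The siHoxc8 counts against control became 6 cytosolic and 3 mitochondrial without control replicate 1, 7 and 2 without control replicate 2 or siHoxc8 replicate 2, and 5 and 2 without siHoxc8 replicate 1, from 12 and 8.

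The balance between the compartments was read also within each library, where a common scaling cancels. The summed FPKM of the cytosolic genes was 10.1 and 10.6 times that of the mitochondrial genes in control, 14.1 and 14.4 times with TGF-β, 13.3 and 14.7 with MetR, and 20.5 and 19.8 with siHoxc8. The control libraries were the lowest, the siHoxc8 libraries the highest, and the TGF-β and MetR libraries overlapped. Cytosolic and mitochondrial enzymes for the same amino acid were then paired, 16 pairs with Mars2 left out, with Eprs used for both Ears2 and Pars2 and Farsa for Fars2. Against control the mean ratio was higher in 15 of 16 pairs with TGF-β (median log2 difference 0.34), in 14 with MetR (0.44) and in all 16 with siHoxc8 (0.96, from 0.28 to 1.61). These ratios share the control libraries and are given as a description.
The pairs did not move alike. For the tyrosyl pair the log2 ratio of Yars1 to Yars2 was 2.85 and 3.02 in control, 2.86 and 2.70 with TGF-β, 4.19 and 4.77 with MetR, and 3.98 and 3.99 with siHoxc8. Both combined treatments stood above the rest. For the valyl pair the ratio of Vars1 to Vars2 was 2.75 and 3.03, then 3.11 and 3.08, then 2.16 and 2.53 with MetR, and 4.61 and 4.41 with siHoxc8, so MetR gave the lowest values and siHoxc8 the highest.
The ratio of Farsa to Fars2 was 1.22 and 1.53 in control, 2.22 in both TGF-β libraries, 1.10 and 0.90 with MetR, and 1.74 and 1.69 with siHoxc8. With this subunit the ratio was highest with TGF-β alone. Farsb, the β subunit, was not used in the pair. From TGF-β to siHoxc8 Farsb rose by 0.98, more than the 0.74 of Fars2, while Farsa changed by 0.29. The order of TGF-β and siHoxc8 thus depends on the subunit used.
Hars1 and Hars2, the histidyl pair, were singled out after their values were seen because their RefSeq starts lie 144 bases apart on opposite strands (GRCr8). Hars1 stood at 40.9 and 45.1 FPKM with TGF-β and 67.1 and 59.9 with siHoxc8 (0.55 ± 0.18, adjusted p = 0.0431, a call lost under 9 alternatives). Hars2 stood at 6.23 and 6.87 and then at 5.85 and 6.11 (-0.11 ± 0.17, adjusted p = 0.623). Their log2 ratio was 2.71 in both TGF-β libraries and 3.52 and 3.29 with siHoxc8.

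**Figure D4:**
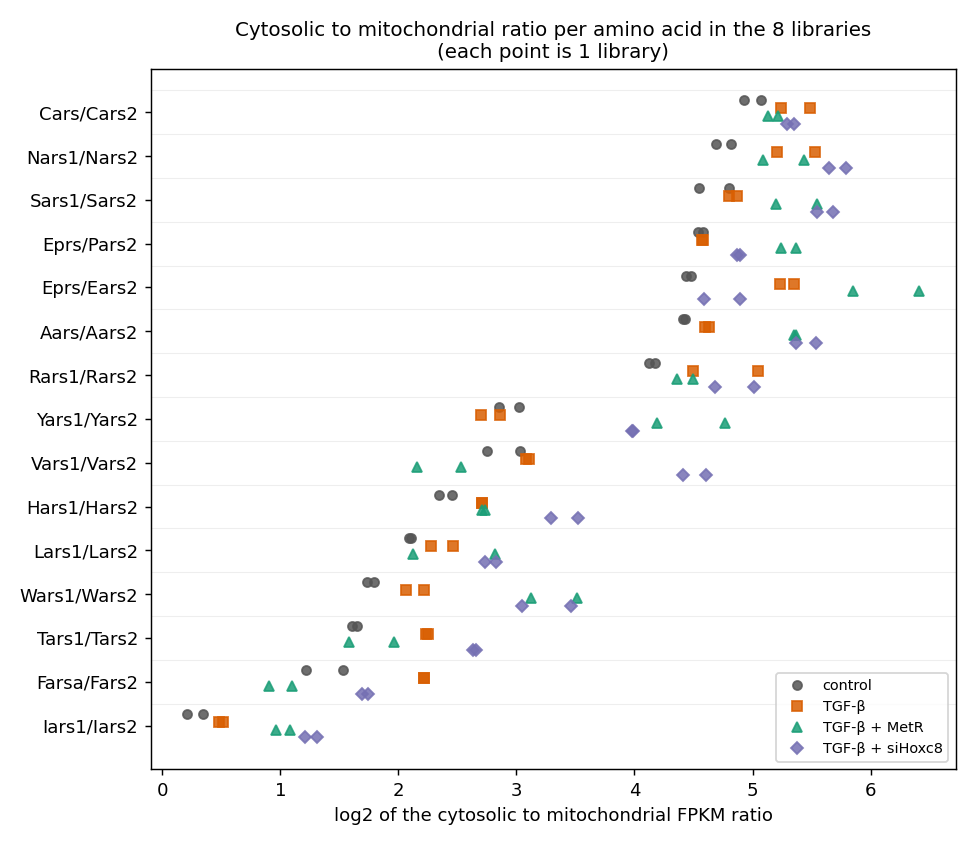
Log2 ratio of cytosolic to mitochondrial FPKM for 15 of the 16 amino acid pairs in each library, coloured by group. The siHoxc8 libraries lie above both control libraries in all pairs drawn, and the Vars1 to Vars2 ratio is lowest with MetR.

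Aimp2 stood at 34.9 and 35.6 FPKM in control, 41.1 and 48.0 with TGF-β, 35.3 and 43.3 with MetR, and 58.1 and 57.7 with siHoxc8. It rose with siHoxc8 over TGF-β (0.38 ± 0.12, adjusted p = 0.0419), a call lost under 8 alternatives. It was also higher with siHoxc8 than in control (0.70 ± 0.12, adjusted p = 0.00292) and lower with MetR than with siHoxc8 (-0.55 ± 0.12, adjusted p = 0.00717). Aimp1 stood at 40.1 and 40.8, then 37.7 and 43.6, then 41.2 and 65.4 with MetR, and 61.8 and 57.7 with siHoxc8 (0.55 ± 0.20 over TGF-β, adjusted p = 0.0561). Its MetR libraries were far apart, and the MetR change of 0.35 passed the test, among the alternatives tried, only without MetR replicate 1. Of the 11 multisynthetase complex genes, 5 rose and 1 fell with MetR (median 0.35) and 7 rose with siHoxc8 (median 0.54), beside 34.8% and 19.0% of all genes with MetR and 28.1% higher with siHoxc8.

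Cytosolic members known as ATF4 targets were counted apart. Of these 13, 9 rose and 1 fell with MetR (median 0.45) and 11 rose with siHoxc8 (median 0.60). Of the 7 other cytosolic genes, 2 rose and 1 fell with MetR (median 0.08) and 4 rose with siHoxc8 (median 0.54). Over all genes 34.8% rose and 19.0% fell with MetR, and 28.1% rose with siHoxc8, with medians of 0.18 and 0.13. The groups with and without the promoter core described above gave 5 of 7 and 6 of 10 rises with MetR, with medians of 0.47 and 0.48, and 6 of 7 and 7 of 10 with siHoxc8, with medians of 0.71 and 0.52. By structural class, 7 of 10 class I genes rose and 1 fell with MetR and 7 rose with siHoxc8, and of 10 class II genes 4 rose and 1 fell with MetR and 8 rose with siHoxc8. The lists overlap, and none was compared with another by a test.

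Atf4 itself stood at 287 and 277 FPKM in control, 281 and 319 with TGF-β, 542 and 738 with MetR, and 433 and 430.1 with siHoxc8. It rose over TGF-β with MetR (1.07 ± 0.15, adjusted p = 0.001) and with siHoxc8 (0.52 ± 0.15, adjusted p = 0.0261). Of 18 amino acid response genes 13 rose and 1 fell with MetR (median 1.10) and 12 rose and 1 fell with siHoxc8 (median 0.66), beside 34.8% and 19.0% of all genes with MetR and 28.1% and 15.7% with siHoxc8. Slc7a5, a transporter of large neutral amino acids, rose by 2.55 with MetR and 2.66 with siHoxc8, and Trib3, a known ATF4 target, by 2.33 with MetR, with 0.52 (adjusted p = 0.0538) for siHoxc8. Ddit3, which encodes the stress factor CHOP, rose by 1.57 with MetR, with 0.29 (adjusted p = 0.138) for siHoxc8. Asns, asparagine synthetase, rose with siHoxc8 (0.43, adjusted p = 0.0154), with 0.30 (adjusted p = 0.0501) for MetR.

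Genes that work beside the synthetases were followed as a list of 16. With TGF-β 1 rose and 5 fell (median -0.36), with MetR 9 rose and 1 fell (median 0.61), and with siHoxc8 8 rose and 1 fell (median 0.47). The shares of all genes that rose and fell were 10.3% and 28.6% with TGF-β, near those of the list, 34.8% and 19.0% with MetR, and 28.1% and 15.7% with siHoxc8. Gatb, a subunit of the mitochondrial amidotransferase that makes glutaminyl-tRNA, stood at 6.98 and 6.73 FPKM with TGF-β, 20.1 and 20.9 with MetR, and 8.05 and 6.01 with siHoxc8 (MetR 1.45 ± 0.15, adjusted p = 0.000274). Its MetR libraries were the highest of the 8. Eef1e1, the third Aimp scaffold protein under another symbol and so outside the name rule, rose by 1.00 with MetR and 0.95 with siHoxc8. Eef1a1, the elongation factor that carries charged tRNA to the ribosome, fell by 0.96 with TGF-β and by a further 0.93 with MetR, and it rose by 0.42 with siHoxc8 over TGF-β.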

How the data were processed

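RNA-seq of 8 libraries was analysed, and the 20 chromatin immunoprecipitation and input samples of the series were not analysed here. The authors deposited FPKM values per gene symbol, per the file headers. Trim Galore, Bowtie2 2.3.5.1, deepTools, featureCounts and build rn6 are listed without roles, per the submitters' processing notes. For the annotation and strand setting nothing was given in the sources used here, so reads of overlapping genes or retrocopies could not be told apart. Whole reads were recovered from the FPKM steps for 100.0% of 19435 genes above 0 (tolerance 0.02 reads).

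Values on the log2(FPKM + 1) scale were fitted in limma 3.58.1 (R 4.3.3), with 1 coefficient per group over all 8 libraries, a trend on mean expression, 4 residual and 3.47 prior degrees of freedom. This scale understates the change of low genes. The test covered 12315 genes that reached 1 FPKM in 2 or more libraries, with two-sided p-values adjusted by Benjamini-Hochberg at 0.05. Groups came from sample titles. Values per library are given for the methionyl pair, the scaffold genes, up to 6 cytosolic and 4 mitochondrial called genes per main comparison by size of change, and calls against their group's direction. Other genes named were chosen after their values were seen. The members and lists were chosen with earlier results of these data known. Alternatives were another pseudocount, other filters, rescalings, limma-voom on recovered reads, fits of 2 groups, a replicate block and leaving out each library. A few genes that the rule or the lists take are counted but not reported here by name, in the text or in the figures.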

Additional observations from a re-analysis of the deposited data

How the results depend on the processing

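With 2 libraries per group, small calls hang on single libraries. No share of all genes is given for alternatives other than the rescalings, so those counts describe the members only. Counts of called genes moved by more than 1.5 times under these alternatives. With only the compared groups fitted, cytosolic calls were 8 for MetR against TGF-β and 6 for MetR against control, and mitochondrial calls 4 and 6. With a mean of at least 5 FPKM required, 10 mitochondrial genes were tested in place of 16, with 6 calls for TGF-β against control and 5 for MetR against TGF-β. Median-ratio and quantile rescaling gave 4 and 5 mitochondrial calls for TGF-β against control, and 11 cytosolic calls each for MetR against siHoxc8. The causes of the shifts with 2 groups and with rescaling were not tested.

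Leaving out 1 library in turn gave cytosolic counts of 1 to 10 for TGF-β against control, 12 to 17 for MetR and 8 to 20 for siHoxc8 against TGF-β, 6 to 14 and 5 to 17 for these against control, and 4 to 15 for MetR against siHoxc8. Mitochondrial counts were 3 to 11, 6 to 10, 1 to 6, 6 to 9, 2 to 8 and 3 to 6. For the tested members over the 3 main comparisons, 1564 of 1806 alternative values kept their side of the threshold, 163 lost and 79 gained a call, and none called was reversed.

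Replicate numbers were not used to pair the samples in the main fit. Correlations of replicate differences between groups were -0.02 to 0.02, except 0.20 between TGF-β and MetR. These values do not show whether the cultures were paired. The fit with the replicate block called 5, 14 and 15 cytosolic and 9, 8 and 4 mitochondrial genes in the 3 main comparisons, and 9, 12 and 8 cytosolic and 9, 8 and 5 mitochondrial genes in the others. Depth limits Mars2 and Rars2 most. The count test on the recovered reads, limma-voom, called 6, 13 and 15 cytosolic and 11, 8 and 3 mitochondrial genes in the main comparisons.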

Other observations

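Tars3, a second cytosolic threonyl-tRNA synthetase gene that the name rule did not take, stood at 5.63 and 5.18 FPKM in control, 4.32 and 4.50 with TGF-β, 4.51 and 7.15 with MetR, and 5.36 and 5.04 with siHoxc8. It passed no test in the 3 main comparisons. Its level lay among those of the mitochondrial genes, far under the 45.4 and 43.8 FPKM of Tars1 in control. Dtd1, which removes D-amino acids from tRNA, stood at 18.0 and 16.0 FPKM in control and 6.07 and 6.85 with TGF-β, with no overlap (-1.27 ± 0.15, limma adjusted p = 0.00075). Sepsecs, which completes selenocysteinyl-tRNA, stood at 2.61 and 2.74 with TGF-β, 6.04 and 9.52 with MetR, and 7.57 and 6.72 with siHoxc8, and rose in both comparisons by 1.23 and 1.15.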
